A study of Mus musculus with 30 samples.

Results

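D6-deficient skin 1 day after the last application of the phorbol ester TPA was compared, across all genes of the array, with D6-deficient control skin. The comparison used 6 of the 30 arrays of the study, 3 from day 1 and 3 from day 0, with each mouse on an array of its own. Shaved back skin of female 129–C57BL/6 mice aged 8 to 12 weeks had received 3 applications of 50 μM TPA at intervals of 24 h, and day 1 was counted from the last of these. The controls stand as day 0 and received the acetone vehicle according to the methods, whereas the titles of these arrays call them untreated. Wild type (WT) skin of days 0 and 1, 6 arrays in all, and D6-deficient skin of day 2, 3 arrays, were used for comparison.

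D6 is an atypical chemokine receptor of lymphatic endothelium that takes up and degrades inflammatory CC chemokines without signaling. TPA activates protein kinase C, and applied to mouse skin it drives keratinocytes to divide, thickens the epidermis and draws in leukocytes. Whole back skin also holds hair follicles, which cycle between rest and growth and make hair keratins and pigment in the growth phase, sebaceous glands, dermis, fat and the thin panniculus muscle.

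Levels are log2 RMA intensities (the robust multiarray average, a background-corrected and quantile-normalized brightness). Changes are differences of log2 levels, day 1 minus day 0, so that 1 stands for a doubling. Calls required more than a 3-fold change and, by limma with Benjamini-Hochberg adjustment, an adjusted p under 0.05. "Rose" and "fell" are used where the adjusted p was under 0.05, whatever the fold. With 3 arrays on each side precision is limited, and the smallest p of an exact permutation test would be 0.1. The gene for D6 (Ccbp2, now Ackr2) has 3 probe sets. Over days 0 and 1, levels on 1422112_at lay between 3.36 and 3.86 for the D6-deficient and between 4.41 and 5.70 for the WT mice, and on 1422111_at between 4.55 and 5.09 and between 5.14 and 6.26. This pair separated the genotypes by range. By limma the genotype difference passed on both at day 0 (adjusted p = 1.9e-04 and 0.0079) but on neither at day 1 (adjusted p = 0.25 and 0.39). On the brightest, 1437937_at, the genotypes overlapped. The keratinocyte markers, among them Krt5 and Krt14, averaged between 12.54 and 12.99 on the 6 D6-deficient arrays. By their hybridization controls the 30 arrays were split into sets of 17 and 13. The first set held D6-deficient day 0 array 1 and day 1 arrays 1 and 3, and the other day 0 arrays 2 and 3 and day 1 array 2. A change within a set thus rests on a single array at either day 0 or day 1.

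At day 1, 382 of 36029 probe sets were called higher in D6-deficient skin, 1.06% of those tested, and 515 were called lower, 1.43%. All of these 897 probe sets had the same sign within both sets of arrays, which their selection on the same 6 arrays largely fixes. Increases reached 8.39 and decreases -5.63, and 30 probe sets rose and 9 fell by more than 16-fold. The largest increases were in keratins of the hair follicle, in pigment genes and in proteins of the activated epidermis. The largest decreases were in the cytochrome P450 Cyp2g1 and the lipid genes Scd3, Far2 and Fa2h, and genes of skeletal muscle fell by smaller amounts. In whole skin, fewer cells of a type and less RNA per cell cannot be told apart.

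For the gene lists below, each gene is represented by its brightest probe set. Among the 17771 genes with such a probe set, 1.28% were called higher and 1.78% lower, the median change was 0.04, and 18.8% rose and 17.8% fell at an adjusted p under 0.05. The counts of a list are to be read against these shares.

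**Figure D1:**
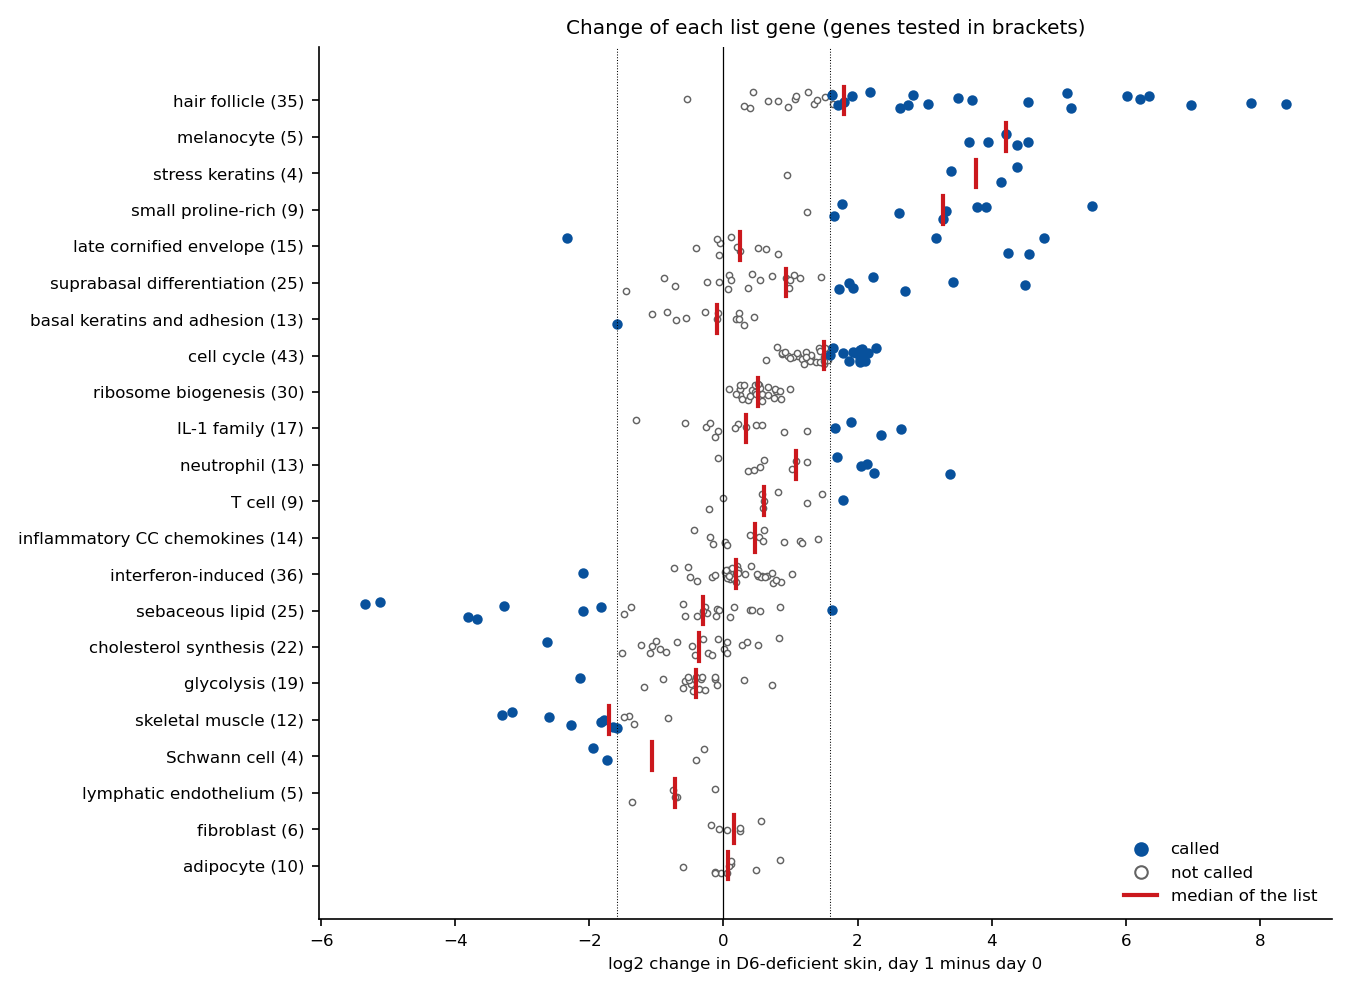
Log2 change of each tested gene of 22 gene lists in D6-deficient skin, day 1 minus day 0, with filled points for called genes, open points for others, a red bar for the median of the list and dotted lines at 3-fold. All melanocyte genes lie above 3.6 and all skeletal muscle genes below -0.8. No gene of the fibroblast and adipocyte lists is called on its brightest probe set.

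The keratins of the inner root sheath, the layer that molds the growing hair, had the largest increases. Krt25 was at 3.91, 3.68 and 4.63 on the day 0 arrays and at 12.52, 12.71 and 12.16 on the day 1 arrays, a change of 8.39 (SE 0.46, adjusted p = 2.4e-11) or 335-fold. Krt73 went from 3.91, 4.20 and 4.02 to 12.23, 12.18 and 11.35, a change of 7.87 (SE 0.57, adjusted p = 2.0e-09). For both genes the days did not overlap, which the rule for naming the largest changes required. The same held for 893 of the 897 called probe sets. Krt27 at 6.35, Krt28 at 6.21 and Krt71 at 6.02, root-sheath keratins as well, rose by similar amounts. A dimmer probe set of Krt28 gave 2.75.

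Genes of the hair shaft and its regulators rose with them. Krt35 went from 4.57, 4.34 and 4.38 to 11.77, 11.55 and 10.90 (change 6.98, SE 0.55, adjusted p = 4.5e-09), and Krt85, another hair keratin, changed by 5.19. S100a3, a calcium-binding protein of the hair cuticle, changed by 5.12 and Prr9, a proline-rich protein, by 4.65. Trichohyalin (Tchh), the granule protein of the root sheath, changed by 4.50 and Padi3, which deiminates trichohyalin, by 3.70. Shh, the signal made by the follicle matrix, changed by 4.54. The homeobox factors Msx2 at 3.50, Hoxc13 at 2.64 and Dlx3 at 2.19 and the Wnt effector Lef1 at 1.91 were also called. Of 35 tested hair follicle genes, 20 were called higher and none lower, 24 rose and 1 fell, and the median change was 1.80. The one that fell was Sox9 at -0.54. The mean level of the list ran from 5.26 to 5.36 on the day 0 arrays and from 7.77 to 8.46 on the day 1 arrays. The median was 1.68 within the first set of arrays and 2.35 within the other. Several hair keratins of the later shaft did not pass, such as Krt81 at 0.44 (adjusted p = 0.57), Krt83 at 0.39 (adjusted p = 0.61) and Krt34 at 0.96 (adjusted p = 0.47). Krt15, a keratin of basal cells and the follicle bulge, fell from 12.94, 12.76 and 12.80 to 10.99, 11.18 and 11.55, a change of -1.59 at the edge of 3-fold. It was under 3-fold with 1 of several arrays left out, such as -1.46 without day 1 array 1.

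All 5 melanocyte genes on the list were called higher, with a median change of 4.22. Tyrosinase (Tyr), the first enzyme of melanin synthesis, went from 3.71, 3.72 and 3.88 to 8.47, 8.65 and 7.84 (change 4.55, SE 0.62, adjusted p = 5.5e-06). Tyrp1 and Dct, the other enzymes of the pathway, changed by 4.22 and 3.66. Pmel (Si on the array), which builds the fibrils of the melanosome, changed by 4.38, and Mlana, a melanosome protein, by 3.95. On every pigment gene day 1 array 3 was the lowest of the day 1 arrays, as it was for Krt25, Krt73 and Krt35, and it still lay far above day 0.

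**Figure D2:**
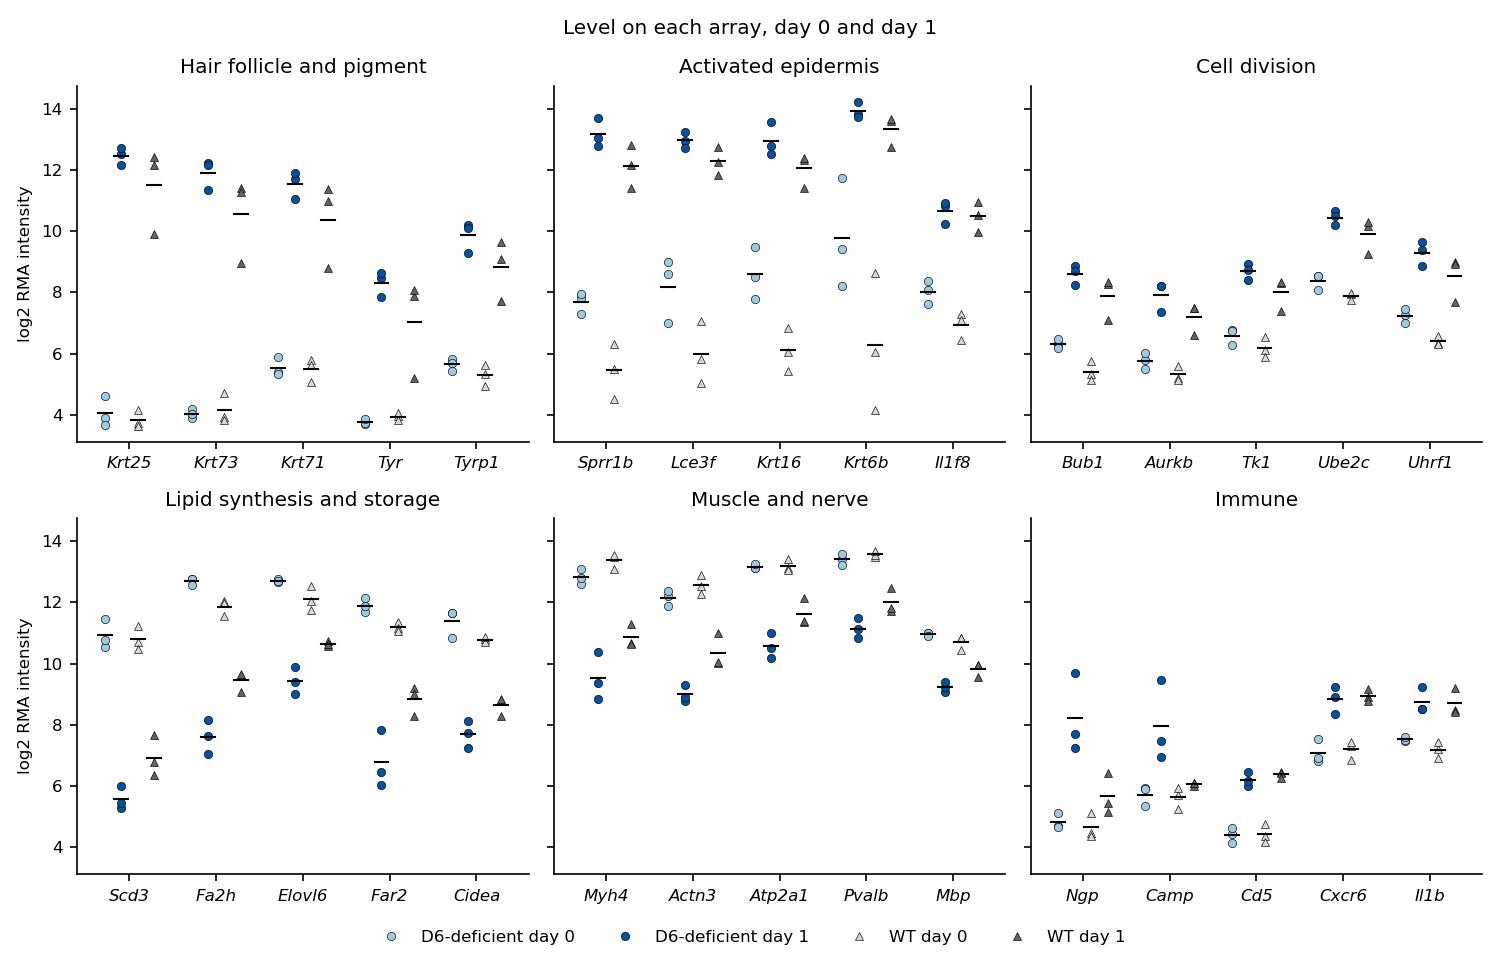
Log2 RMA intensity of 30 genes on each of the 12 arrays of days 0 and 1, with circles for D6-deficient and triangles for WT skin, light for day 0 and dark for day 1, and a bar for the mean of 3 arrays. The D6-deficient days do not overlap for any gene shown, as for 893 of the 897 called probe sets. Ngp and Camp are highest on a single day 1 array.

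Proteins that keratinocytes make when the epidermis is irritated formed the next group. Small proline-rich proteins are cross-linked into the cornified envelope, the protein shell of the outermost keratinocytes. Of 9 tested members, 8 were called higher and the ninth, Sprr3, rose by 1.25 without reaching 3-fold, and the median change was 3.28. Sprr1b went from 7.82, 7.28 and 7.95 to 13.71, 13.05 and 12.80, a change of 5.50 (SE 0.54, adjusted p = 8.7e-08) or 45.3-fold. Sprr2h changed by 3.92, Sprr2i by 3.78, Sprr2f by 3.32, Sprr2d by 3.28 and Sprr1a by 2.62. Probe sets shared by the near-identical Sprr2a genes changed by between 2.15 and 3.87 and cannot be assigned to 1 gene. The mean level of the list ran from 6.68 to 7.72 at day 0 and from 9.71 to 10.60 at day 1.

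These members form a gene family and lie together on chromosome 3, and most share a set of letters in their promoters. The Sprr2 stretches below are much alike in sequence, so that matches in them are not independent of each other. The letters TGANTCA, with any base as N, were searched as a loose form of the site of AP-1 (the Fos and Jun factors that act downstream of TPA). The promoter held them in 7 of the 8 tested members with an entry in the RefSeq promoter table (GRCm38.p6, 250 bases before to 50 after the start, both strands). They occurred in 5.75% of the promoters of all 12791 tested genes with an entry, in 10.1% of the 237 promoters of genes called higher and in 9.2% of the 250 of genes called lower. A match describes the letters only. The 120 bases from -210 to -91 before the start are given 5′ to 3′ on the strand of the gene, with the matches in capitals, to show where they lie in each member.
Sprr1b, chr3:92438870-92438989, minus strand: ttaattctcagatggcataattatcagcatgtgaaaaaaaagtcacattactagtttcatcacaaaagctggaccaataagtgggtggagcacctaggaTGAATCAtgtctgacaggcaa
Sprr1a, chr3:92485972-92486091, minus strand: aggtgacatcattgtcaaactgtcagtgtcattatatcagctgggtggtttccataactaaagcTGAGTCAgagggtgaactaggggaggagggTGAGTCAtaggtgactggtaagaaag
Sprr2d, chr3:92338930-92339049, plus strand: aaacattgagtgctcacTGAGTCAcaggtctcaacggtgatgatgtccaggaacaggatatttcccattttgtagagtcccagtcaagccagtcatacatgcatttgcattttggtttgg
Sprr2f, chr3:92364977-92365096, plus strand: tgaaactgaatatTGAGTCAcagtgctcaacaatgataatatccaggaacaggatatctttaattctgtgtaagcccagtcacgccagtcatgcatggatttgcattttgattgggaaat
Sprr2h, chr3:92385475-92385594, plus strand: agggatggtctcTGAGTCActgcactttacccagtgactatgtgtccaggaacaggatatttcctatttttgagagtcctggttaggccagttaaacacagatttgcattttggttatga
Sprr2i, chr3:92407781-92407900, plus strand: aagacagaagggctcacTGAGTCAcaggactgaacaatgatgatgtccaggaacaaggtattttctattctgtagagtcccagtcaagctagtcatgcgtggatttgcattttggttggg
Sprr2k, chr3:92432372-92432491, plus strand: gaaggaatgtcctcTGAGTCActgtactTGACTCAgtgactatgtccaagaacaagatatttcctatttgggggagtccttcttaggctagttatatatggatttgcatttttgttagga

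In the 5 Sprr2 promoters the first match began between 193 and 198 bases before the start, and in Sprr1b it began 111 bases before it. Sprr1a and Sprr2k held a further match each. The Sprr1b match read TGAATCA, whereas every other match shown read TGAGTCA or TGACTCA. The transcripts of the AP-1 factors themselves were not called: of 23 AP-1 and early-response genes, 7 rose, 5 fell and 11 did not pass, with changes between -1.03 and 0.98. Dusp1, a phosphatase that ends MAP kinase signaling, fell by 1.01.

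Of 4 keratins of wounded and hyperproliferative epidermis 3 were called higher, and the fourth, Krt17, rose by 0.95. Krt16 went from 8.50, 7.78 and 9.49 to 13.58, 12.80 and 12.52 (change 4.38, SE 0.54, adjusted p = 1.6e-06). Its partner Krt6b went from 9.42, 8.21 and 11.75 to 14.22, 13.83 and 13.74 (change 4.14, SE 0.79, adjusted p = 2.5e-04), and Krt6a changed by 3.39. The day 0 arrays of these genes were far apart, array 3 being the highest for each, and none reached the level of day 1. Krt5 and Krt14, the keratins of resting basal cells, gave -0.09 (adjusted p = 0.64) and 0.23 (adjusted p = 0.26). Dimmer probe sets of Krt14 gave 0.83 (adjusted p = 0.028) and 0.45 (adjusted p = 0.051). Of 13 genes of basal keratins and adhesion, none rose and 5 fell on their brightest probe sets.

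Among late cornified envelope genes the response was split by subfamily. All 4 measured Lce3 genes were called higher, Lce3f at 4.78, Lce3c at 4.56, Lce3a at 4.25 and Lce3b at 3.17. Of the 11 Lce1 genes, Lce1f rose by 0.81, Lce1m was called lower at -2.34 (12.39, 12.09 and 11.72 at day 0 against 9.31, 8.94 and 10.92 at day 1), and 9 did not pass. Of 25 genes of suprabasal differentiation, 7 were called higher and none lower, 14 rose and 2 fell, with a median of 0.94. Besides Tchh they were repetin (Rptn) at 3.43, Casp14 at 2.71, the desmosomal cadherin Dsc1 at 2.23, Cnfn at 1.93, the transglutaminase Tgm3 at 1.87 and filaggrin (Flg) at 1.73. A second probe set of Casp14 gave 0.24, and the 2 averaged were under 3-fold at 1.47. The same held for Tgm3, whose second probe set gave 0.98 and whose average was 1.43. Krt10 and loricrin (Lor), the bulk proteins of the spinous and granular layers, gave 0.08 (adjusted p = 0.90) and 0.07 (adjusted p = 0.93).

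Protease inhibitors and epidermal cytokines rose too. Of 15 stefin A and clade B serpin genes, 4 were called: Stfa2l1 at 4.74, Serpinb12 at 3.18, Stfa3 at 2.85 and Serpinb3a at 2.58. Of 17 IL-1 family genes, 4 were called higher, all of the IL-36 branch that keratinocytes make: Il1f8 at 2.65, Il1f6 at 2.35, Il1f9 at 1.90 and Il1f5, the antagonist of the branch, at 1.66. Il1f5 was under 3-fold without day 0 array 2 (1.56) or day 1 array 3 (1.52). Its second probe set gave 1.16, and with probe sets averaged it was under 3-fold at 1.41. The largest increases outside the lists were 2610528A11Rik at 5.31 (4.14, 3.98 and 6.17 at day 0 against 10.21, 9.53 and 10.47 at day 1), Lrrc15 at 5.15 and the chitinase-like Chi3l4 (now Chil4) at 5.05. Chi3l4 varied widely among its day 1 arrays, at 9.89, 6.74 and 8.56. Of 28 tested genes of the eicosanoid pathway 4 were called higher, 8 rose and 3 fell, with a median of 0.12. Among the called were the phospholipases Pla2g4b at 3.87 and Pla2g4e at 1.81 and the prostaglandin D synthase Ptgds at 2.11. The lipoxygenase Alox15 was called at 1.59 but not without day 0 array 3 (adjusted p = 0.10), day 1 array 3 (adjusted p = 0.069) or day 0 array 1 (1.58, under 3-fold). Ptgs2, the inducible cyclooxygenase, gave -0.43 (adjusted p = 0.53). Among 13 genes of the EGF receptor system, amphiregulin (Areg) at 1.96 and epigen (Epgn) at 1.60 were called higher, and betacellulin (Btc) at -2.70 and Egf at -1.71 were called lower. Epgn was under 3-fold without day 0 array 2 (1.49), day 1 array 1 (1.52) or day 1 array 2 (1.58). Arg2 at 3.09 and Smox at 1.93, enzymes of arginine and polyamine metabolism, were called higher as well. Of the 11 tested genes of that list 5 rose and 1 fell, with a median of 0.11. A second probe set of Smox gave 0.31 (adjusted p = 0.18), and with probe sets averaged Smox was under 3-fold at 1.12.

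Every one of the 43 tested genes of DNA replication and mitosis rose, between 0.63 and 2.27 with a median of 1.50, and 15 were called. Bub1, a kinase of the spindle checkpoint, went from 6.31, 6.19 and 6.49 to 8.85, 8.70 and 8.26 (change 2.27, SE 0.36, adjusted p = 3.9e-05). Aurkb at 2.16, Kif20a at 2.07 and Ube2c at 2.06 act in mitosis, and Tk1 at 2.11 and Uhrf1 at 2.05 in S phase. The count of called genes depended on single arrays near the 3-fold line and ran from 13 to 24, the latter without day 1 array 3. Of 30 ribosome biogenesis genes, 22 rose and none fell or was called, with a median of 0.51.

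Promoters of cell cycle genes often hold the CCAAT box and the cell cycle homology region (CHR), spelled TTTGAA here. The CCAAT letters occurred on either strand in 24 of the 32 cell cycle promoters with an entry and in 37.8% of all promoters, and TTTGAA in 14 of the 32 and in 12.6%. The E2F letters TTTCGCGC and TTTGGCGC occurred in 12.5% of the cell cycle promoters each and in 0.555% and 0.86% of all. The 120 bases before the start of Bub1, Ube2c and Uhrf1 are given, being the most changed cell cycle genes that held such letters there, with the letters of both motifs, on either strand, in capitals. None of the 3 stretches held the E2F letters.
Bub1, chr2:127831860-127831979, minus strand: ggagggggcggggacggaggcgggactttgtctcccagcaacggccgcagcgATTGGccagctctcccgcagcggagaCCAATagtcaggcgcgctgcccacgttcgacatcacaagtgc
Ube2c, chr2:164769809-164769928, plus strand: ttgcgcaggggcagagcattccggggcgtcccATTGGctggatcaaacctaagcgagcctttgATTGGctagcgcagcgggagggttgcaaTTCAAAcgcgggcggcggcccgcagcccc
Uhrf1, chr17:56303217-56303336, plus strand: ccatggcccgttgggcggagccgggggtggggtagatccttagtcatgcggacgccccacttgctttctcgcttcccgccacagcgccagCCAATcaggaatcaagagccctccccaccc

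Among the largest decreases were those of enzymes that build the lipids of sebum and of related genes. Scd3, the stearoyl-CoA desaturase of the sebaceous gland, fell from 10.55, 11.45 and 10.78 to 5.29, 5.44 and 6.00 (change -5.35, SE 0.58, adjusted p = 3.3e-07), and its other probe set changed by -5.54. Far2, a reductase that makes the fatty alcohols of wax, fell from 12.14, 11.67 and 11.88 to 6.04, 6.45 and 7.82 (change -5.13, SE 0.66, adjusted p = 2.9e-06). Fa2h, which hydroxylates fatty acids, fell from 12.78, 12.76 and 12.57 to 7.03, 7.64 and 8.15 (change -5.10, SE 0.45, adjusted p = 2.3e-08). For all 3 the days did not overlap, as for 893 of the 897 called probe sets. The fatty acid elongases Elovl3 at -3.81, Elovl6 at -3.28 and Elovl5 at -2.10, the lipid droplet protein Cidea at -3.67, the lipase-like Pnpla5 at -4.09, Acoxl at -3.64 and the sterol acyltransferase Soat1 at -1.82 were called lower as well. Of 25 sebaceous lipid genes, 7 were called lower and 1, the desaturase Fads2 at 1.62, higher, 10 fell and 3 rose, and the median was -0.30. Fasn and Scd1, general enzymes of fatty acid synthesis, gave 0.84 (adjusted p = 0.098) and -0.11 (adjusted p = 0.77), and Pparg, the regulator of sebocytes and fat cells, gave -0.10 (adjusted p = 0.80). The decrease was thus not shared by all lipid genes.

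Of 22 genes of cholesterol synthesis, 10 fell and 2 rose, with a median of -0.36. Sc4mol (now Msmo1) at -1.52 and Hmgcs1 at -1.06 fell without reaching 3-fold, though Sc4mol was called at -1.63 without day 0 array 2 or day 1 array 1. The sterol isomerase Ebp rose by 0.52. Among the largest decreases outside the lists were Cyp2g1, a cytochrome P450, from 12.12, 9.80 and 11.69 to 5.02, 5.31 and 6.39 (change -5.63), the P450 Cyp1a1, a target of the aryl hydrocarbon receptor, at -4.03, the channel protein Panx3 at -4.33, Ces4a at -3.50 and Tmem45b at -3.59. A dimmer probe set of Panx3 changed by -0.41.

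Genes of fast skeletal muscle fell together. All 12 listed genes fell and 8 were called, with a median change of -1.71, and the mean level of the list ran from 13.12 to 13.30 at day 0 and from 11.03 to 11.56 at day 1. The myosin heavy chain Myh4 fell from 12.60, 13.09 and 12.81 to 10.38, 8.84 and 9.38 (change -3.30, SE 0.43, adjusted p = 3.7e-06). Actn3, the alpha-actinin of fast fibers, changed by -3.15, the calcium pump Atp2a1 by -2.60, parvalbumin (Pvalb) by -2.27 and creatine kinase (Ckm) by -1.78, whereas the actin Acta1 changed by -0.83 only. Outside the list the calcium release channel Ryr1 at -3.56 and Pdk4, a kinase that turns off glucose oxidation, at -3.68 were called. Of 19 listed glycolysis genes 11 fell and 1 rose, and the only one called was Pfkm, the muscle isoform of phosphofructokinase, at -2.14. Probe sets of Pgam2 (-2.04), Eno3 (-1.98) and Ldhb (-1.88, -2.07 and -2.13), not counted in that list, were called lower too. Among Schwann cell genes the myelin protein Mbp was called lower at -1.74, and the lineage factor Sox10 gave -0.29 (adjusted p = 0.075). The 7 other probe sets of Mbp changed by between -1.85 and -0.46. None of 10 adipocyte and none of 20 collagen and matrix genes was called on its brightest probe set. Cfd and Col3a1, an adipocyte and a matrix gene, gave -0.03 and 0.06 (adjusted p = 0.85 and 0.70). Among probe sets not counted in these lists, Col11a1 (3.38 and 2.84) and Col14a1 (2.70) were called higher and Fn1 (-1.61) and Fbn1 (-2.13) lower. A dimmer probe set of the fibroblast gene Pdgfra was called higher at 1.66. The part of the amount of muscle or gland taken with the skin in the decreases of muscle and lipid genes was not tested.

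Changes of leukocyte genes were smaller and less even. Of 13 neutrophil genes 5 were called higher, with a median of 1.08. Ngp, a granule protein, went from 4.68, 5.13 and 4.67 to 7.70, 9.70 and 7.23 (change 3.38, SE 0.80, adjusted p = 0.0019), Camp changed by 2.25 and Ltf by 2.05. Day 1 array 2 was the highest for all 3 granule genes, and without it the adjusted p was 0.022 for Ngp, 0.059 for Camp and 0.17 for Ltf. Ltf passed with none of the 6 arrays left out except day 1 array 3. S100a9 and S100a8, which keratinocytes also make, were called at 2.14 and 1.70, but their day 0 array 3 was already at 12.85. Without day 0 array 2 their adjusted p rose to 0.056 and 0.15, and S100a8 also lost its call without day 0 array 1, day 1 array 1 or day 1 array 2. The count of called neutrophil genes was 2 without day 1 array 2 or day 0 array 2 and 3 without array 1 of either day. Mpo and Elane, the granule enzymes of neutrophil precursors, gave -0.08 and 0.45 (adjusted p = 0.92 and 0.21).

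Of 18 epithelial antimicrobial genes 6 were called higher, among them the elafin-like Wfdc12 at 3.02, the beta-defensin Defb3 at 1.93 and the protease inhibitor Slpi at 1.67. Defb3 lost its call without day 0 array 2 (adjusted p = 0.075), when 3 of the list were left, and Slpi was under 3-fold without day 1 array 1. Of 9 T cell genes 6 rose and 1 was called, Cd5 at 1.79 (4.14, 4.44 and 4.62 at day 0 against 5.99, 6.15 and 6.44 at day 1), with Lck at 1.47 and Cd3d at 1.24. The mast cell and basophil receptor chain Fcer1a was called at 2.64, and the mast cell proteases Cpa3 and Cma1 gave 0.16 and -0.08 (adjusted p = 0.54 and 0.73). None of 12 monocyte or macrophage genes, 9 dendritic cell genes and 9 MHC class II genes was called. Of 5 lymphatic endothelial genes 3 fell, Mmrn1 by 1.37, Prox1 by 0.75 and Flt4 by 0.72, and Lyve1 and Pdpn gave -0.70 and -0.12 (adjusted p = 0.39 and 0.74).

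Transcripts of the listed inflammatory CC chemokines, the class from which D6 takes its ligands, all changed by less than 3-fold at day 1. None of 14 inflammatory CC chemokines was called, 4 rose and none fell, with a median of 0.47. Ccl8 went from 12.88, 13.27 and 12.79 to 13.80, 13.92 and 13.96, a change of 0.91 (SE 0.13, adjusted p = 1.0e-05). Ccl3 rose by 1.41, Ccl17 by 1.17 and Ccl12 by 1.14, and the adjusted p of Ccl17 ran from 0.032 to 0.12 with 1 array left out, the highest without day 1 array 1. Ccl2 gave 0.53 (adjusted p = 0.070) and Ccl20 -0.20 (adjusted p = 0.71). Of 7 neutrophil-attracting chemokines none rose and Cxcl15 fell by 0.36, and Cxcl1 and Cxcl2 gave -0.07 (adjusted p = 0.87) and 1.58 (adjusted p = 0.063). Of the Cxcr3 ligands Cxcl10 rose by 0.79. Among 21 chemokine receptors Ccr9 at 2.14 and Cxcr6 at 1.74 were called, 10 rose and 4 fell, the 4 being the atypical receptors Ackr1 at -0.84, Ackr3 at -1.14, Ackr4 at -1.15 and D6 itself at -1.14 on its brightest probe set. This probe set does not separate the genotypes, and those that do gave -0.03 (adjusted p = 0.93) and 0.26 (adjusted p = 0.45). Cxcr6 was under 3-fold without day 1 array 3 (1.54) or with probe sets averaged (1.51). The 3 other probe sets of Ccr9 changed by between 0.15 and 0.64.

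Cytokines were mostly near their control level. Il1b rose from 7.48, 7.51 and 7.59 to 8.52, 8.52 and 9.24 (change 1.24, SE 0.32, adjusted p = 0.0040) and Il1a by 0.90, and Il20 fell by 1.23. Tnf, Il17a, Il6 and Il15 gave 0.03, -0.02, 0.66 and -0.32, with adjusted p of 0.88, 0.98, 0.19 and 0.28. Il22 shares its probe set with a near copy, which gave 0.16 (adjusted p = 0.82). Of 36 listed genes of the IL-17, IL-20 and IL-6 families and related cytokines, none was called, 4 rose and 9 fell. A probe set of the receptor Il31ra, not counted there, was called lower at -1.84. Of 16 NF-kappaB genes none rose and 5 fell, Nfkbia by 0.68. Of 36 interferon-induced genes 6 rose, with Ifit3 at 1.02 the highest, 3 fell, and the only one called was Ifitm6, which fell by 2.09. The median was 0.19.

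Smaller lists gave single calls. The clock repressor Nr1d1 was called at -2.05 among 19 clock genes, of which 7 fell and 4 rose, with Cry1 at 1.05 and Arntl at -0.88. A probe set of the clock gene Npas2, not counted in that list, was called lower as well, at -2.15. The hours at which skin was taken were not given in the sources used here. The matrix glycoprotein Tnc was called at 2.33 among 24 matrix remodelling genes, and the glutathione transferase Gsta4 at 1.74 among 19 Nrf2 targets, though at 1.58, under 3-fold, without day 1 array 1. None of 12 heat shock genes was called.

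In WT skin 1 day after TPA, 1.34% of genes were called higher and 0.973% lower. Of the 897 probe sets called in D6-deficient skin, 426 were also called in WT skin in the same direction, 47.5% of the D6-deficient and 67% of the 636 WT calls, and none was called in the opposite direction. Their median change was 1.99 in D6-deficient and 1.71 in WT skin for those called higher, and -1.97 and -1.49 for those called lower. Since these probe sets were selected in D6-deficient skin, a smaller median in WT skin does not test a difference. The difference between the genotypes was tested for each probe set.

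**Figure D3:**
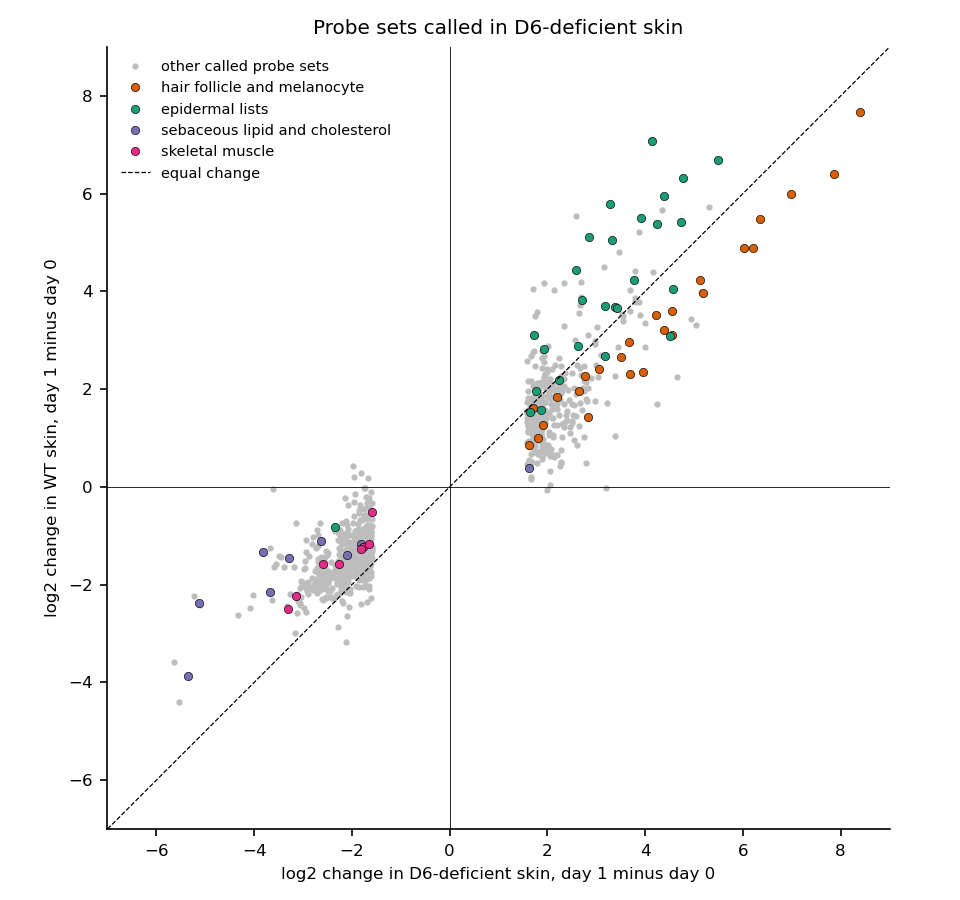
Log2 change from day 0 to day 1 in WT skin (vertical) against that in D6-deficient skin (horizontal) for the 897 probe sets called in D6-deficient skin, with called list genes in color and a dashed line at equal change. Of the 897, 891 changed in the same direction in both genotypes; hair follicle and pigment genes lie below the dashed line, and most epidermal genes, which rose, and most sebaceous lipid genes, which fell, lie above it.

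In this test 7 probe sets passed an adjusted p under 0.05, or 0.0194% of those tested, and 3494 an unadjusted p under 0.05, and 1 was called. It belongs to C130079G13Rik (now Aadacl2fm1), at 7.16, 7.33 and 7.42 in D6-deficient skin at day 0 and at 5.47, 5.42 and 5.14 at day 1, whereas WT arrays ran from 5.14 to 5.57 and from 5.29 to 5.91. The difference of the changes was -2.16 (SE 0.29, adjusted p = 0.0030). For all 7 probe sets the genotypes differed at day 0 (adjusted p of at most 0.024), and at day 1 no adjusted p was under 0.17. Ccr9 was at 3.97, 3.78 and 4.31 in D6-deficient skin at day 0 and between 5.86 and 6.08 in WT skin, and its changes, 2.14 and 0.61, differed by 1.53.

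No member of the hair follicle, melanocyte, small proline-rich or sebaceous lipid lists passed this test. The hair follicle median was 1.80 in D6-deficient and 1.29 in WT skin, and the difference for Krt25 was 0.73 with a 95% interval from -0.61 to 2.07 (adjusted p = 0.75). WT day 1 array 2 was the lowest of its group for these genes, with Krt25 at 9.91 against 12.42 and 12.16 on the other arrays and Tyr at 5.20 against 7.88 and 8.07. For the small proline-rich genes and the keratins of wounded epidermis the median WT change was larger, and the mean WT level at day 0 was lower. The day 0 level enters the change, so that these are not separate observations. Sprr1b was between 4.51 and 6.33 in WT control skin and between 7.28 and 7.95 in D6-deficient control skin, and between 11.40 and 12.83 and between 12.80 and 13.71 at day 1. For Krt6b the changes were 7.07 and 4.14 and differed by -2.93 (interval -5.23 to -0.63, adjusted p = 0.37). Fa2h changed by -5.10 in D6-deficient and -2.41 in WT skin, a difference of -2.69 (interval -4.02 to -1.37, adjusted p = 0.14). Far2 differed by -2.76 (interval -4.68 to -0.84, adjusted p = 0.31). These intervals are wide, and differences of several fold cannot be told from none after adjustment.

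From day 1 to day 2 in D6-deficient skin 0.833% of genes were called higher and 0.602% lower. Of the 897 probe sets called at day 1, 78 were called in the opposite direction by day 2 and 27 further in the same direction. The day 1 arrays enter both contrasts, with opposite sign, so that these counts are given as a description. The levels of the hair genes were back near control: Krt25 was at 12.46 ± 0.28 at day 1 and 3.82 ± 0.12 at day 2 (SD, n = 3), against 4.07 ± 0.50 at day 0. Of the 35 hair follicle genes 21 were called lower at day 2 than at day 1, as were all 5 melanocyte genes. Tyr stood between, at 5.16 ± 0.98 on day 2 against 8.32 ± 0.42 on day 1 and 3.77 ± 0.10 on day 0. The mice of the days were different animals.

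Epidermal genes went different ways. Sprr1b was at 13.18 ± 0.47 and 13.68 ± 0.25 on days 1 and 2, and Krt16 at 12.97 ± 0.55 and 13.59 ± 0.07. Of 15 late cornified envelope genes Lce3a and Lce3b were called higher, by 2.60 and 1.70, and Lce1l and Lce1m lower, at -1.65 and -2.15. Of 25 suprabasal genes Krt77 and Tchh were called lower at -5.76 and -3.89, as was Krt15 at -2.05 among 13 basal genes. Of 18 antimicrobial genes 10 were called higher at day 2 than at day 1, Defb3 by 3.73. Of 36 interferon-induced genes 19 were called higher, with a median of 1.74, and Ifitm6 went up by 3.01 after its fall. Il1b rose from 8.76 ± 0.42 to 11.90 ± 0.32 and Cxcl10 from 7.95 ± 0.15 to 9.87 ± 0.22. Lipid and muscle genes stayed low: none of the 12 muscle genes and 1 of the 25 sebaceous lipid genes was called between the days. Scd3 was at 5.58 ± 0.38 on day 1 and 5.01 ± 0.26 on day 2.

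**Figure D4:**
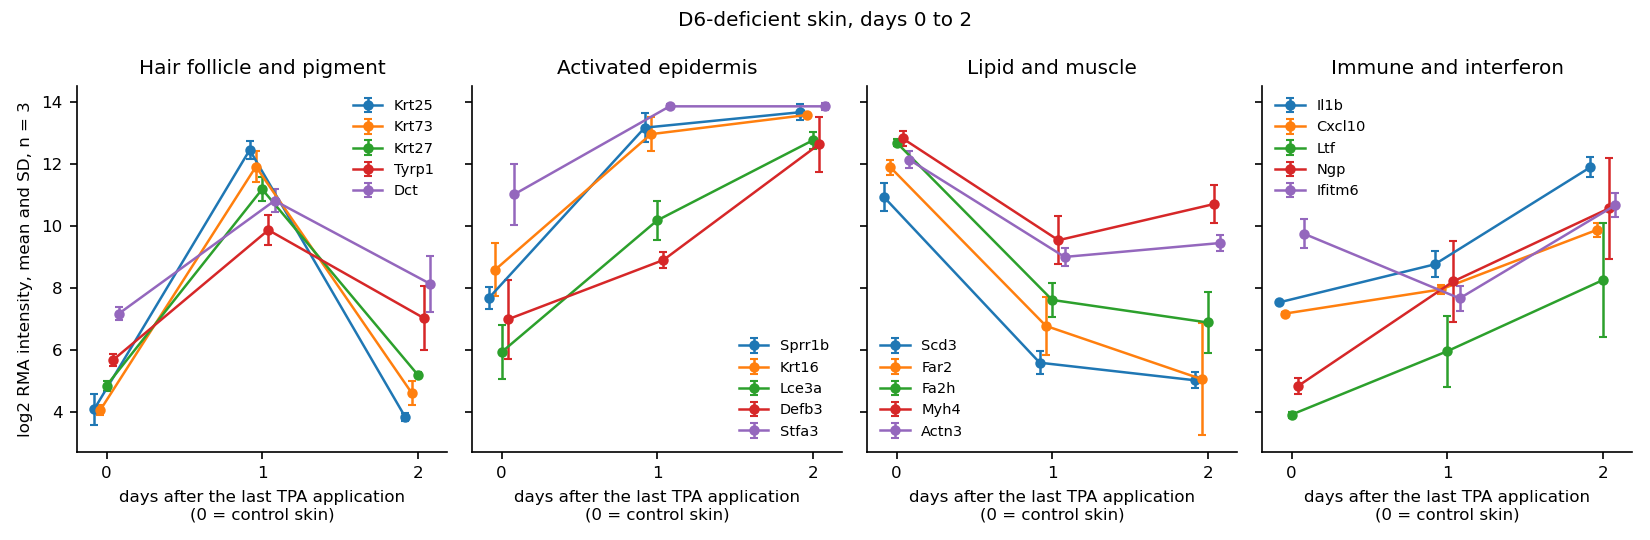
Mean log2 RMA intensity with SD over 3 arrays in D6-deficient skin at days 0, 1 and 2 for 20 genes. Hair follicle keratins rise to between 11.19 and 12.46 at day 1 and are below 5.2 at day 2. The epidermal genes shown stay high or rise further, lipid genes stay low, and Il1b and Cxcl10 reach their highest level at day 2.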

How the data were processed

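Skin RNA of 3 mice per genotype and day was hybridized to Affymetrix mouse genome arrays. The authors computed the values by RMA in GeneSpring GX and deposited them as linear intensity values, of which log2 was taken here. After removal of 64 control probe sets, 45037 were left, and the dimmest 20% by mean were dropped following the methods, leaving 36029. One limma model (version 3.58.1, R 4.3.3, lmFit and eBayes) took in the 30 arrays, with a mean for each genotype and day, and p-values were adjusted over all tested probe sets (Benjamini-Hochberg). The script was tested on simulated data. The comparison, the gene lists and the rules were chosen with earlier results of these data known.

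Named genes are the 15 largest increases and 15 largest decreases among called probe sets with 1 symbol and no overlap, up to 6 called genes of each list or, with fewer than 2 called, its 2 brightest, the D6 gene, the cytokines the study measured, and probe sets called for the genotype difference. Not every gene of this rule is described, and other list members, among them Shh, Padi3, Soat1 and Ccl3, were named after their values were seen. The brightest probe set stands for a gene. Symbols are the array's, updated through RefSeq. Same-numbered arrays of days 1 and 2 deviated together (correlations 0.11 to 0.17), and a replicate block left the count of that contrast at 344. Promoters were matched by gene ID, 1 per gene, with Python 3.11.15. Figures used matplotlib 3.10.9. Results for some genes are not reported here.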

Additional observations from a re-analysis of the deposited data

Results flagged for a closer look

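The change from day 0 to day 1 differed between the genotypes for 7 probe sets at an adjusted p under 0.05 by limma (D6-deficient change minus WT change). C130079G13Rik differed by -2.16, Ccr9 (1427419_x_at) by 1.53, Ak4 by -1.38 and Pcf11 by -0.98. A pair of probe sets without a gene symbol, 1434362_at and 1443611_at, differed by -1.47 and -1.39. Ak4 and Pcf11 did not pass the test in D6-deficient skin itself (changes of -0.40 and -0.24) and rose by 0.98 and 0.74 in WT skin. Groups of 3 arrays were not tested for single arrays that stand apart.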

How the results depend on the processing

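The count of 897 probe sets at day 1 in D6-deficient skin ran from 851 to 1075 with 1 array left out, the highest without day 1 array 3, and was 598 with 16 added to the intensities, 883 with the arrays centred (396 higher and 487 lower) and 908 with the hybridization-control set as a covariate. It was 466 genes with the probe sets of a gene averaged, 2925 at 2-fold and 13092 with no fold threshold. The WT count of 636 ran from 498 to 722 with 1 array left out, and was 403 with 16 added, 347 with probe sets averaged, 1940 at 2-fold, 8660 with no fold threshold and 349 by the methods' t-test after adjustment. The count of 1 for the genotype difference ran from 1 to 5 with 1 array left out, the highest without WT day 0 array 1. It was 0 with 50% of probe sets left out (7 passed in the full set with no fold threshold and 3494 had an unadjusted p under 0.05), 8 with only the arrays of the contrast, 2 with the hybridization-control set as a covariate, 6 at 2-fold, 7 with no fold threshold, 108 by the methods' t-test (2 after adjustment), and, as an alternative chosen after seeing the data, 5 with the genotypes compared on day 1 alone. The count of 344 from day 1 to day 2 ran from 300 to 369, and was 956 at 2-fold, 3753 with no fold threshold and 107 by the adjusted t-test. The cause of these shifts was not tested, except that averaging leaves fewer features.

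With the replicate block the day 1 count stayed at 897 and the genotype difference count was 2. Between days 0 and 1 same-numbered D6-deficient arrays correlated at 0.08, 0.16 and 0.18 in their deviations, and each correlated best with its own number. These weak correlations were much like those between days 1 and 2, and the main model took no account of the replicate number.

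Of 108 called named probe sets, 20 lost the call in at least 1 alternative and 0 changed direction, and 1 other gene, Sc4mol, gained it. Changes near 0 that changed sign were not called. With 1 array left out, Cd79b ran from -0.04 to 0.37, Pecam1 from -0.02 to 0.32, Pf4 from -0.02 to 0.35, Cd74 from -0.04 to 0.20, Col3a1 from -0.06 to 0.14, Tnf from -0.08 to 0.13, Ifitm3 from -0.02 to 0.10, Ccl6 from -0.12 to 0.16, Prdx1 from -0.02 to 0.03, Il17a from -0.12 to 0.10, Cfd from -0.06 to 0.04, Birc3 from -0.12 to 0.02, Col1a2 from -0.21 to 0.04, Cxcl1 from -0.21 to 0.08 and Pdpn from -0.38 to 0.07. With probe sets averaged Ccl6 was -0.10, Col1a2 0.01, Cxcl1 0.24 and the median of the EGF receptor list 0.08, against -0.21. Prdx1 was -0.01 with the hybridization-control covariate and Il17a 0.01 with the arrays centred.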
